A study of Mus musculus with 12 samples.

Results

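The genes described here are 56 genes of central carbon metabolism, listed by symbol, that carry glucose through glycolysis to lactate, move pyruvate into the mitochondrion, run the pentose phosphate branch and the tricarboxylic acid (TCA) cycle, and handle glutamine, glutamate and aspartate. They are 56 of the 46477 genes in the deposited count table, and all 56 passed the filter on low counts that left 17369 genes for testing. RNA was sequenced from 12 libraries of mouse cells in 4 groups of 3: ESCs of the genotypes MTCH2 F/F and MTCH2-/-, and EpiLCs of the same genotypes. The cells are pluripotent lines derived from embryonic day 3.5 (E3.5) embryos on the C57BL/6 background. MTCH2 is a mitochondrial outer membrane protein, and the study asked what its loss does to mitochondria and to the passage from naïve to primed pluripotency.

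Both genotypes carried the same floxed Mtch2 allele. MTCH2-/- cells were made from MTCH2 F/F cells in culture with recombinant Cre (TAT-Cre), which the MTCH2 F/F libraries did not receive by their labels, so the deletion and the exposure to Cre cannot be told apart. Naïve embryonic stem cells (ESCs) were kept in 2i/L, which is inhibitors of MEK and of GSK3 with LIF. Epiblast-like cells (EpiLCs) were moved from 2i/L to Activin A and FGF2 (A/F) for 2 days. By the study's methods the primed condition also had knockout serum replacement and Matrigel-coated wells, which its naïve recipe does not list. Priming here therefore means the new factors, the loss of the old ones, the serum replacement and the coating together. Samples carry the numbers 1 to 3 in each group, and the labels do not say whether a number is a clone, a culture or a day, so p-values measure the spread between these samples. The ESC lines were derived on growth-arrested feeder fibroblasts, and priming itself was done without feeders. RNA came from whole cultures, so fewer cells of a kind and less RNA per cell cannot be told apart.

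Glycolysis splits glucose into pyruvate. Pyruvate is either reduced to lactate and exported, or enters mitochondria through the pyruvate carrier and is turned into acetyl-CoA by pyruvate dehydrogenase, a complex that PDH kinases switch off. Acetyl-CoA feeds the TCA cycle, which glutamine can also supply through glutamate and 2-oxoglutarate, while the pentose phosphate branch makes NADPH and ribose. Naïve mouse ESCs are known to use both glycolysis and respiration, and primed pluripotent cells are known to rely more on glycolysis. Transcript levels do not measure the flux through any of these steps.

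Library totals ran from 17453328 to 24068523 counts, and the 56 genes took 1.08% to 1.52% of them. Mtch2 itself was 177 ± 5.41 CPM (the usual depth-scaled count unit, with TMM scaling; mean ± SD, n = 3 here and throughout) in MTCH2 F/F ESCs and 122 ± 0.572 in MTCH2 F/F EpiLCs, against 1.86 ± 0.305 and 1.88 ± 0.334 in the MTCH2-/- cells, so the levels go with the labels. Values given below after a gene with no unit are log2 fold changes. The summed level of 11 naïve markers was 5482 to 5988 CPM in MTCH2 F/F ESCs, 386 to 715 in MTCH2 F/F EpiLCs, 4661 to 5202 in MTCH2-/- ESCs and 2503 to 2635 in MTCH2-/- EpiLCs. The sum of 8 EpiLC markers was 154 to 159, 3048 to 3691, 167 to 177 and 729 to 949 CPM in the same order. The MTCH2-/- EpiLCs thus lay between ESCs and MTCH2 F/F EpiLCs on both lists, and every comparison below that involves them holds this difference in state, whose part in the metabolic genes was not tested. Of 16 fibroblast markers 13 were tested, and their sum was 54.4 to 62.5, 63.0 to 74.6, 67.7 to 92.1 and 73.2 to 91.7 CPM. Lum, Fap and Twist2, at 0 to 5 counts per library, were left out by the filter on low counts. Of the 13, the genotype test called 9 up and 0 down for MTCH2-/- ESCs. For MTCH2-/- EpiLCs it called 7 up and 2 down. Over all genes it called 23.3% up and 20.4% down in ESCs, and 32.3% and 30.2% in EpiLCs. The sum of the 9 primitive endoderm markers tested (of 10, without Foxa2) was 190 to 211, 117 to 124, 234 to 259 and 192 to 244 CPM. That of the 8 trophoblast markers tested (of 9, without Elf5) was 141 to 161, 49.0 to 62.4, 174 to 203 and 67.7 to 81.1 CPM. The genotype test called 5 of the endoderm markers up and 1 down in ESCs, and 8 and 1 in EpiLCs. Of the trophoblast markers it called 4 up and 1 down in ESCs, and 6 and 1 in EpiLCs. Counts of genes encoded by mitochondrial DNA were 1.98% to 2.11% of the total in MTCH2 F/F ESCs, 1.41% to 1.46% in MTCH2 F/F EpiLCs and 0.52% to 0.60% in MTCH2-/- cells. The part of these markers and of this share in the results was not tested either.

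Some of these genes have near-identical copies in the genome, and reads from such stretches may be lost or split. A window was counted as shared only where it recurs without mismatch in another annotated gene. Of 60-base windows of the transcript, 81.6% were shared for Gapdh, 69.5% for Eno1 and 68.0% for Pgk1. The shares were 42.2% for Got2, 41.3% for Pgam1 and 28.0% for Pkm. The levels of these genes, Gapdh at 22.1 to 36.0 CPM above all, are therefore uncertain, and a share of Pfkp windows (16.9%) overlaps Pitrm1. Ldha (10.4%) and 7 more genes had 10% to 30% of their windows shared, and the other 41 had less than 10%.

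Priming of MTCH2 F/F cells raised Slc16a3, Pdk1, Ldha, Pfkl and Eno1 by at least 2-fold, genes of glycolysis, lactate export and the block on pyruvate dehydrogenase, and lowered Slc2a3, Hk1, Mpc1, Mpc2, Idh2 and Pdk4 by at least 2-fold. Of the 56 genes in MTCH2 F/F cells, 26 were higher and 16 lower in EpiLCs than in ESCs (edgeR's quasi-likelihood test, Benjamini-Hochberg adjusted p under 0.05 over all 17369 genes). Among all genes tested 31.9% were higher and 32.1% lower, against 46.4% and 28.6% of the 56. The median log2 fold change of the 56 was 0.15, and that of all genes -0.009. At least 2-fold changes with an adjusted p under 0.05 were found in 11 of the 56 (19.6%) and in 27.3% of all genes. The 3 libraries of one group did not overlap the 3 of the other for 45 of the 56, a count that was not made over all genes.

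In MTCH2-/- cells fewer of these genes passed the test, and of the first 11 genes Slc16a3, Pdk1 and Hk1 kept a change of at least 2-fold. Priming raised 13 and lowered 18 of the 56 (23.2% and 32.1%, against 20.0% and 22.2% of all genes), 4 of them by at least 2-fold (7.14%, against 12% of all genes), with a median of -0.046 against -0.018. Over all genes, too, fewer passed in MTCH2-/- than in MTCH2 F/F cells, where 31.9% were higher and 32.1% lower. Among the 56, 42 changed in MTCH2 F/F cells, and 39 of these had a log2 fold change of smaller size in MTCH2-/- cells. These 42 were picked by their MTCH2 F/F values, and the same count was not made over all genes. The 12 that rose in both genotypes were Pfkl, Pgk1, Eno1, Pkm, Slc2a1, Slc16a1, Slc16a3, Pdk1, G6pdx, Tkt, Dlst and Glul, and the 11 that fell in both were Hk1, Eno2, Slc2a3, Mpc1, Mpc2, Taldo1, Cs, Idh2, Idh3b, Sucla2 and Mdh1. For 6 genes the called direction was opposite: Aldoa, Tpi1, Pdk3, Idh3a and Fh1 rose in MTCH2 F/F and fell in MTCH2-/- cells, and Pfkp did the reverse. Of these, the calls of Tpi1 in MTCH2-/-, Fh1 in MTCH2 F/F and Idh3a in both genotypes were lost without 1 or more libraries (Idh3a in MTCH2 F/F cells without any 1 of their 6 libraries, at up to 0.108, and in MTCH2-/- cells without any 1 library other than ESC replicate 1 or EpiLC replicate 2 of that genotype, at up to 0.123). The fall of Cs in MTCH2-/- cells was lost without their EpiLC replicate 3 (0.0502).

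Between genotypes the change was mostly downward. MTCH2-/- ESCs had 31 genes lower and 4 higher than MTCH2 F/F ESCs, which is 55.4% and 7.14% against 20.4% and 23.3% of all genes. In EpiLCs 35 were lower and 11 higher, which is 62.5% and 19.6% against 30.2% and 32.3% of all genes. The median log2 fold change of the 56 was -0.36 in either medium, beside 0.006 and 0.022 over all genes. In ESCs 4 genes (7.14%, against 11% of all genes) and in EpiLCs 15 genes (26.8%, against 21.0%) changed by at least 2-fold. The same 28 genes were lower in both media, Eno2 alone was higher in both, and Hk1 and Pdk4 were lower in ESCs and higher in EpiLCs. How many of all genes were lower or higher in both media was not counted. Among the 41 genes with few shared windows, 23 were lower and 3 higher in ESCs, and 26 lower and 8 higher in EpiLCs. Over the 5 contrasts 181 calls were made on the 56 genes, of which 34 were lost when 1 library was left out, and 0 of those were changes of at least 2-fold.

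**Figure D1:**
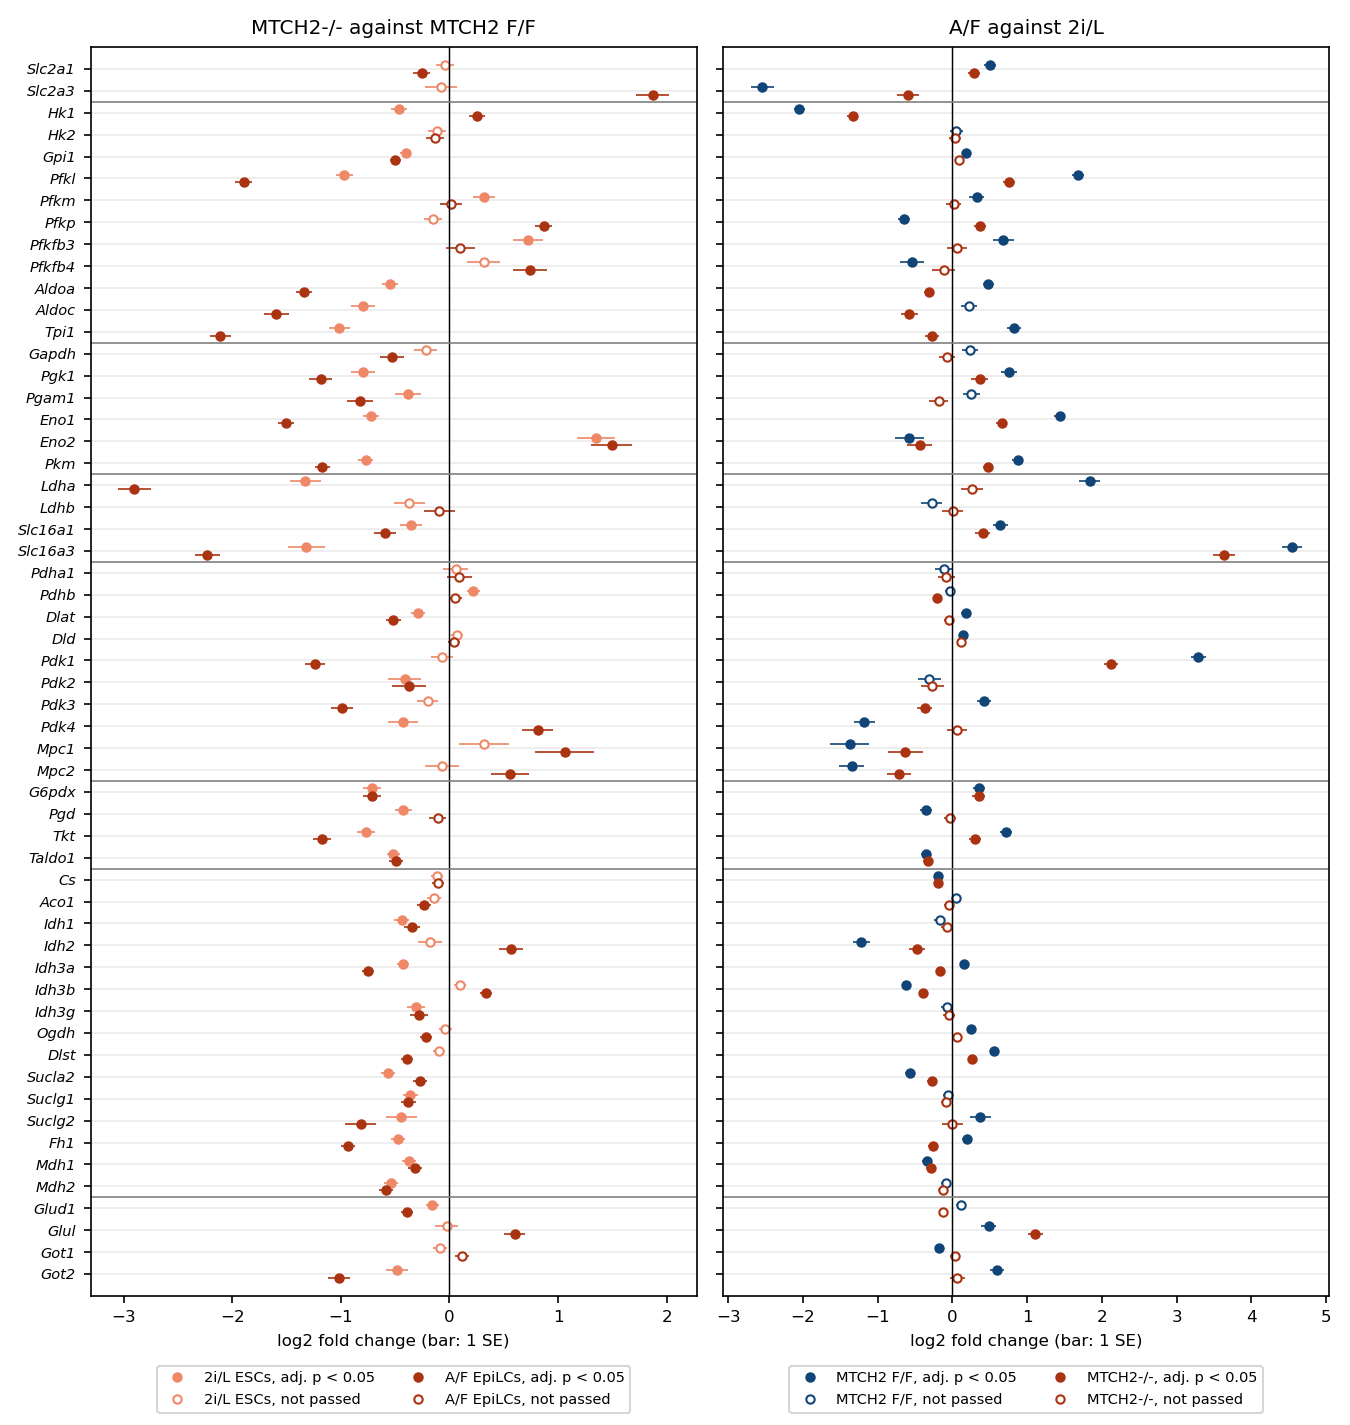
Log2 fold change of each of the 56 genes, MTCH2-/- against MTCH2 F/F on the left and A/F EpiLCs against 2i/L ESCs on the right, with a bar of 1 SE, grey lines between the groups of genes and open points where the adjusted p was not under 0.05. On the left 35 EpiLC points are filled and below 0, and 11 are filled and above it; on the right Slc16a3 and Pdk1 lie farthest to the right in both genotypes.

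Glucose enters these cells through GLUT1, encoded by Slc2a1, and the high-affinity GLUT3, encoded by Slc2a3. Slc2a3 fell steeply with priming in MTCH2 F/F cells and much less in MTCH2-/- cells, while Slc2a1 rose a little in both. Slc2a3 was at 2676, 2358 and 2632 CPM in MTCH2 F/F ESCs, 418, 331 and 565 in MTCH2 F/F EpiLCs, 2629, 2354 and 2282 in MTCH2-/- ESCs and 1723, 1539 and 1542 in MTCH2-/- EpiLCs. The ESC libraries of both genotypes overlapped, and each MTCH2-/- EpiLC library was above each MTCH2 F/F EpiLC library. Its log2 fold change with priming was -2.55 (SE 0.16, adjusted p = 1.42e-08) for MTCH2 F/F and -0.60 (SE 0.15, adjusted p = 0.00561) for MTCH2-/- cells. Between genotypes it was 1.87 (SE 0.15, adjusted p = 4.29e-07) in EpiLCs and -0.078 (SE 0.15, adjusted p = 0.698) in ESCs, the latter not past the threshold. Slc2a1 went from 237 ± 16.1 to 336 ± 5.65 CPM for MTCH2 F/F cells (0.50), and from 231 ± 21 to 281 ± 30.8 for MTCH2-/- cells (0.29, adjusted p = 0.00992, or 0.0688 without MTCH2-/- EpiLC replicate 3). It was -0.26 in MTCH2-/- EpiLCs against MTCH2 F/F (adjusted p = 0.0121, or 0.0596 without MTCH2-/- EpiLC replicate 1).

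Upper glycolysis runs from the phosphorylation of glucose to the triose phosphates and is covered by 11 genes. In MTCH2-/- cells 6 of them were lower in ESCs and 5 in EpiLCs (20.4% and 30.2% of all genes). In the same order 2 and 3 were higher (23.3% and 32.3% of all genes). The lowest values in EpiLCs were those of Tpi1, Pfkl and the aldolases. Hk1 fell with priming in both genotypes, and Hk2, at 278 to 366 CPM in the 12 libraries, passed the test in none of the 5 contrasts.

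Hk1, which encodes the widely expressed hexokinase, was at 217, 234 and 251 CPM in MTCH2 F/F ESCs, 55.8, 51.5 and 62.7 in MTCH2 F/F EpiLCs, 168, 178 and 164 in MTCH2-/- ESCs and 69.2, 65.6 and 67.6 in MTCH2-/- EpiLCs. No 2 groups overlapped, and the genotypes changed order between media: MTCH2-/- was below MTCH2 F/F in ESCs and above it in EpiLCs. Priming gave Hk1 a log2 fold change of -2.05 (SE 0.077, adjusted p = 2.54e-12) for MTCH2 F/F and of -1.33 (SE 0.075, adjusted p = 1.9e-09) for MTCH2-/- cells. The genotype contrast was -0.46 (SE 0.072, adjusted p = 0.000112) in ESCs and 0.25 (SE 0.076, adjusted p = 0.00891) in EpiLCs, where the adjusted p was 0.0883 without MTCH2 F/F EpiLC replicate 2.

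Phosphofructokinase commits sugar to glycolysis, and its liver-type subunit Pfkl was at 114, 107 and 106 CPM in MTCH2 F/F ESCs, 352, 369 and 329 in MTCH2 F/F EpiLCs, 50.4, 57 and 60.1 in MTCH2-/- ESCs and 84.9, 102 and 96.7 in MTCH2-/- EpiLCs. Every MTCH2-/- library of Pfkl lay below every MTCH2 F/F library, whatever the medium. The genotype contrast of Pfkl was -0.97 (SE 0.080, adjusted p = 2.62e-07) in ESCs and -1.89 (SE 0.079, adjusted p = 5.76e-11) in EpiLCs. The platelet-type subunit Pfkp was at 337, 315 and 303 CPM in MTCH2 F/F ESCs, 189, 189 and 232 in MTCH2 F/F EpiLCs, 279.5, 311 and 269.5 in MTCH2-/- ESCs and 366, 376 and 369 in MTCH2-/- EpiLCs. Pfkp fell with priming in MTCH2 F/F cells, -0.65 (SE 0.080, adjusted p = 3.01e-06), and rose in MTCH2-/- cells, 0.37 (SE 0.080, adjusted p = 0.00149), with no overlap between the libraries compared. The muscle-type Pfkm rose by 0.33 with priming in MTCH2 F/F cells and was 0.32 higher in MTCH2-/- than in MTCH2 F/F ESCs (adjusted p = 0.0179, with overlapping libraries, and 0.0571 to 0.101 without MTCH2 F/F ESC replicate 1 or 2 or MTCH2-/- ESC replicate 1). Pfkfb3 and Pfkfb4 make or remove fructose 2,6-bisphosphate, the activator of phosphofructokinase, and were at 5.02 to 19.6 CPM. Pfkfb3 was higher in MTCH2-/- than in MTCH2 F/F ESCs (0.72), and Pfkfb4 in EpiLCs (0.74). With priming of MTCH2 F/F cells Pfkfb3 rose (0.68) and Pfkfb4 fell (-0.54).

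Aldolase cleaves the 6-carbon sugar, and Aldoa, the ubiquitous form, was at 1098, 1187 and 1162 CPM in MTCH2 F/F ESCs, 1571, 1641 and 1593 in MTCH2 F/F EpiLCs, 742, 852 and 762 in MTCH2-/- ESCs and 580.4, 699 and 618 in MTCH2-/- EpiLCs. The 4 groups of Aldoa did not overlap, with the MTCH2-/- EpiLCs lowest and the MTCH2 F/F EpiLCs highest. The genotype contrast was -0.55 (SE 0.072, adjusted p = 2.35e-05) in ESCs and -1.34 (SE 0.073, adjusted p = 8.44e-10) in EpiLCs. Aldoc, the form best known from brain, was at 23.5, 25.9 and 25.5 CPM in MTCH2 F/F ESCs, 29.8, 29.7 and 28.2 in MTCH2 F/F EpiLCs, 13.5, 15.3 and 14.5 in MTCH2-/- ESCs and 7.66, 11.1 and 10.4 in MTCH2-/- EpiLCs. It too was lower in MTCH2-/- cells with no overlap, at -0.79 (SE 0.11, adjusted p = 4.15e-05) and -1.59 (SE 0.12, adjusted p = 1.57e-08) on the log2 scale. With the replicate number as a block its rise with priming in MTCH2 F/F cells, 0.23, moved from an adjusted p of 0.0771 to 0.0351.

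Triose phosphate isomerase, encoded by Tpi1, interconverts the triose phosphates that aldolase makes. Tpi1 was at 198, 177 and 178 CPM in MTCH2 F/F ESCs, 356, 338 and 283 in MTCH2 F/F EpiLCs, 80.6, 99.9 and 93.3 in MTCH2-/- ESCs and 69, 81.7 and 76.1 in MTCH2-/- EpiLCs. The MTCH2 F/F libraries were all above the MTCH2-/- libraries, while the ESC and EpiLC libraries of the MTCH2-/- cells overlapped. The genotype contrast was -1.01 (SE 0.096, adjusted p = 1.34e-06) in ESCs and -2.11 (SE 0.099, adjusted p = 2.52e-10) in EpiLCs. Priming raised it by 0.82 (SE 0.095, adjusted p = 1.46e-06) in MTCH2 F/F cells, and its log2 fold change was -0.27 (SE 0.097, adjusted p = 0.0348) in MTCH2-/- cells, a call lost without any 1 of 7 libraries (MTCH2 F/F ESC replicate 2 or 3, MTCH2 F/F EpiLC replicate 2, MTCH2-/- ESC replicate 2 or 3, MTCH2-/- EpiLC replicate 1 or 3; adjusted p 0.0554 to 0.146). Gpi1, glucose-6-phosphate isomerase, was lower in MTCH2-/- cells, at -0.40 in ESCs and -0.50 in EpiLCs.

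Lower glycolysis, from glyceraldehyde 3-phosphate to pyruvate, makes the ATP of the pathway. Of its 6 genes 4 were lower in MTCH2-/- ESCs and 5 in MTCH2-/- EpiLCs (20.4% and 30.2% of all genes), and Eno2 was higher in both. Priming of MTCH2 F/F cells raised Pgk1, Eno1 and Pkm, and the same genes rose in MTCH2-/- cells. Pkm, pyruvate kinase, was at 1489, 1524 and 1400 CPM in MTCH2 F/F ESCs, 2652, 2811 and 2626 in MTCH2 F/F EpiLCs, 827, 905 and 852 in MTCH2-/- ESCs and 1089, 1306 and 1198 in MTCH2-/- EpiLCs. The primed MTCH2-/- libraries did not reach the level of the unprimed MTCH2 F/F libraries. The contrast was -0.77 (SE 0.069, adjusted p = 6.53e-07) in ESCs and -1.17 (SE 0.070, adjusted p = 2.14e-09) in EpiLCs. Pgk1, phosphoglycerate kinase, was at 31.1, 26.7 and 25.4 CPM in MTCH2 F/F ESCs, 49.5, 48.6 and 42.5 in MTCH2 F/F EpiLCs, 14.8, 16.7 and 16.6 in MTCH2-/- ESCs and 20.1, 23.8 and 18 in MTCH2-/- EpiLCs. Its order over the groups was that of Pkm, with -0.79 (SE 0.11, adjusted p = 3.99e-05) in ESCs and -1.19 (SE 0.11, adjusted p = 1.8e-07) in EpiLCs. Its rise with priming in MTCH2-/- cells (0.36, adjusted p = 0.0156) was lost without MTCH2-/- ESC replicate 1 or MTCH2-/- EpiLC replicate 2 (0.0603 and 0.0889).

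The 2 enolases went in opposite directions between genotypes. Eno1, the broadly expressed enolase, was at 228, 232 and 208 CPM in MTCH2 F/F ESCs, 591, 619 and 602 in MTCH2 F/F EpiLCs, 128, 142 and 133 in MTCH2-/- ESCs and 191, 234 and 215 in MTCH2-/- EpiLCs. Eno2, best known as the neuronal enolase, was at 10.3, 7.51 and 10.7 CPM, 6.22, 5.58 and 7.33 CPM, 29.7, 22.5 and 20.4 CPM and 22, 15.5 and 16 CPM in the same order. Each MTCH2-/- library of Eno2 was above each MTCH2 F/F library, and in each medium each MTCH2-/- library of Eno1 was below each MTCH2 F/F library. The genotype contrast of Eno1 was -0.73 (SE 0.074, adjusted p = 2.08e-06) in ESCs and -1.50 (SE 0.074, adjusted p = 2.95e-10) in EpiLCs. That of Eno2 was 1.35 (SE 0.18, adjusted p = 2.65e-05) in ESCs and 1.49 (SE 0.19, adjusted p = 6.17e-06) in EpiLCs. Eno2 fell with priming, but its calls of -0.58 for MTCH2 F/F and -0.44 for MTCH2-/- cells did not hold without every library. The first was lost without MTCH2 F/F ESC replicate 3 or MTCH2 F/F EpiLC replicate 2 (adjusted p 0.058 to 0.062), and the second without MTCH2 F/F ESC replicate 1 or 3, MTCH2 F/F EpiLC replicate 1 or 2, MTCH2-/- ESC replicate 1 or 2 or MTCH2-/- EpiLC replicate 2 or 3 (0.0503 to 0.228). The copy Eno1b had 7 counts in all, against 69319 for Eno1. Gapdh and Pgam1 were lower in MTCH2-/- EpiLCs (-0.53 and -0.82) and Pgam1 in ESCs (-0.38, adjusted p = 0.0186, or 0.0851 without MTCH2-/- ESC replicate 1), with the limits on their counting given above. With the replicate number as a block, both also passed as higher with priming of MTCH2 F/F cells, at 0.24 (adjusted p 0.0584 without and 0.0384 with it) and 0.26 (0.0732 and 0.023).

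Lactate production and export held the largest genotype changes in EpiLCs (Ldha) and the largest priming changes (Slc16a3) among the 56 genes. Ldha encodes the lactate dehydrogenase subunit that favours the making of lactate, and Slc16a3 encodes MCT4, an exporter of lactate. Both were higher in MTCH2 F/F EpiLCs than in any other group. Ldha was at 281, 238 and 234 CPM in MTCH2 F/F ESCs, 933, 1011 and 741 in MTCH2 F/F EpiLCs, 88.7, 117 and 94.3 in MTCH2-/- ESCs and 103, 140.4 and 116 in MTCH2-/- EpiLCs. The MTCH2-/- ESC and EpiLC libraries of Ldha overlapped, and all of them were below the MTCH2 F/F ESC libraries. Priming raised Ldha by 1.84 (SE 0.14, adjusted p = 1.39e-07) in MTCH2 F/F cells and gave 0.26 (SE 0.14, adjusted p = 0.166) in MTCH2-/- cells. Between genotypes the log2 fold change was -1.33 (SE 0.14, adjusted p = 1.51e-05) in ESCs and -2.90 (SE 0.15, adjusted p = 7.63e-09) in EpiLCs. Slc16a3 was at 8.04, 9.03 and 8.07 CPM in MTCH2 F/F ESCs, 197, 223 and 166 in MTCH2 F/F EpiLCs, 3.16, 3.77 and 3.16 in MTCH2-/- ESCs and 37.3, 49.4 and 38.6 in MTCH2-/- EpiLCs. It rose with priming in both genotypes with no overlap, by 4.54 (SE 0.13, adjusted p = 4.51e-13) and 3.63 (SE 0.15, adjusted p = 1.15e-10). In MTCH2-/- cells it was lower, at -1.32 (SE 0.17, adjusted p = 2.08e-05) in ESCs and -2.23 (SE 0.11, adjusted p = 7.63e-10) in EpiLCs.

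Ldhb, the subunit that favours pyruvate, was at 126 to 210.5 CPM in the 12 libraries and passed the test in none of the 5 contrasts. With the replicate number as a block, Ldhb passed in ESCs only, with an adjusted p of 0.0489 against 0.0521 without it, at a log2 fold change of -0.37. Slc16a1, which encodes MCT1, was lower in MTCH2-/- cells, at -0.36 in ESCs (adjusted p = 0.0107, or 0.0541 without MTCH2-/- ESC replicate 3) and at -0.59 in EpiLCs. It rose with priming by 0.64 for MTCH2 F/F and by 0.40 for MTCH2-/- cells.

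**Figure D2:**
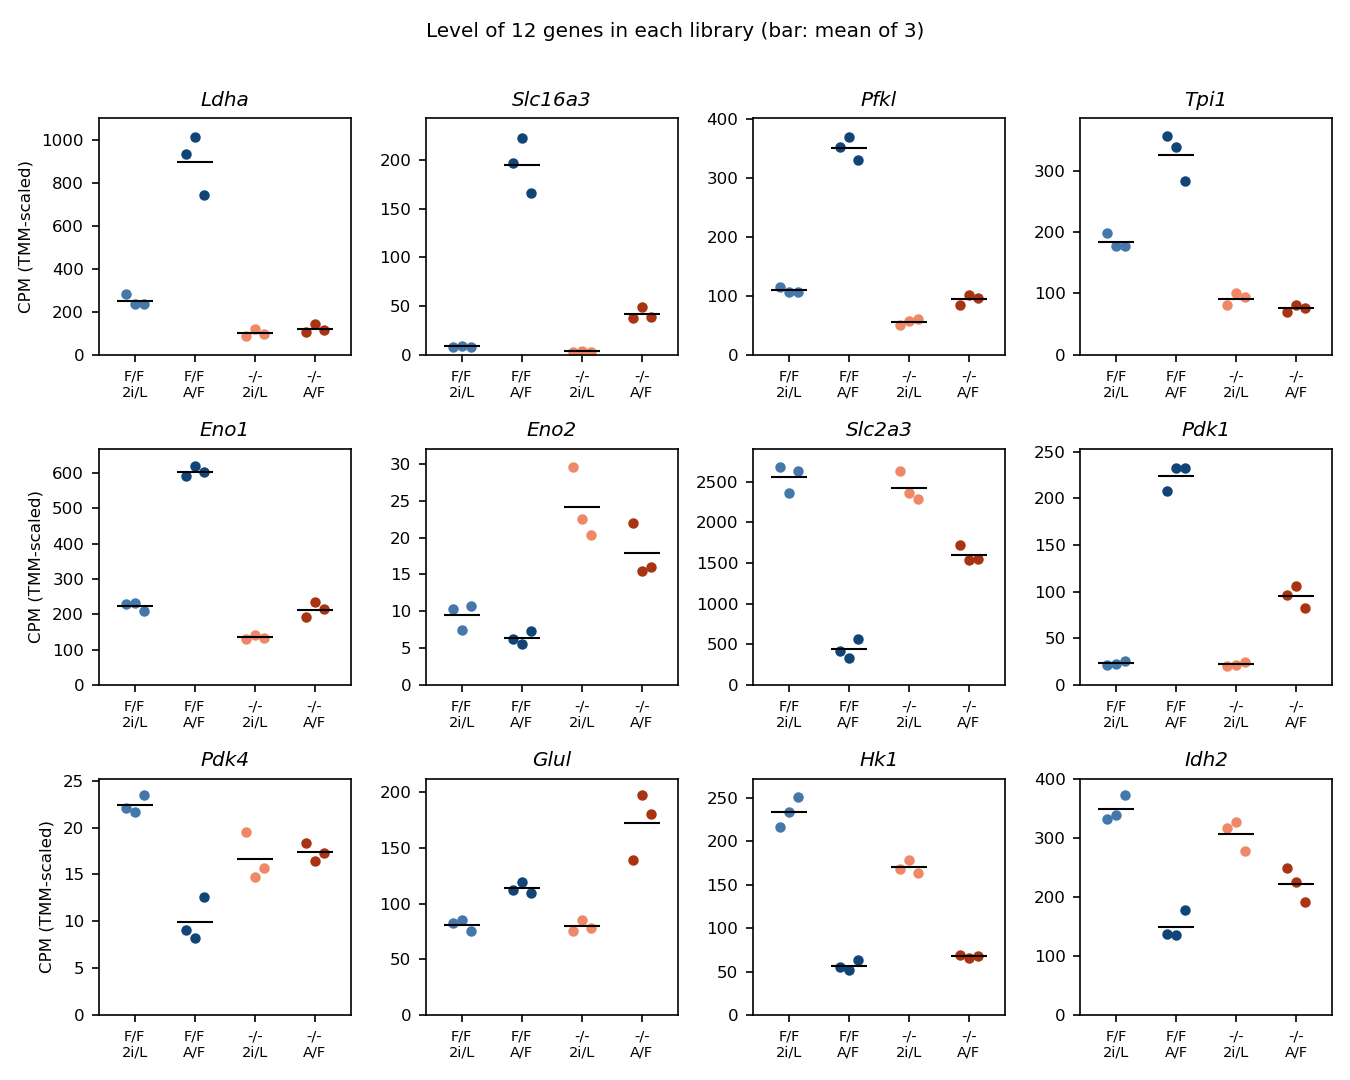
Level of 12 of the genes in each library, in CPM on a linear axis from 0, with 1 point per library and a bar at the mean of the 3 libraries of a group (F/F and -/- are the MTCH2 genotypes, 2i/L the ESCs and A/F the EpiLCs). Ldha, Slc16a3, Pfkl, Tpi1, Eno1 and Pdk1 are highest in MTCH2 F/F EpiLCs, Slc2a3 and Hk1 are highest in ESCs, and Eno2 is higher in all 6 MTCH2-/- libraries than in all 6 MTCH2 F/F libraries.

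Promoter sequence was looked up for the genes, because several rise together with priming and because hypoxia-inducible factors and MYC proteins are known to bind promoters of glycolytic genes at the cores ACGTG or GCGTG and the E-box CACGTG. RefSeq windows of 300 bases, from 250 before to 50 after an annotated start, matched 54 of the 56 genes in 76 windows (build GRCm38.p6), without Idh3a and Slc2a3. The letters ACGTG, searched on both strands, were in 38.2% of the 76 windows and in 19.6% of 32851 windows of all genes, and GCGTG was in 57.9% against 32.4%. CACGTG, which contains ACGTG on both strands, was in 10.5% against 7.15%, and AAGGTCA, the element of estrogen-related receptors such as Esrrb, in 5.26% against 4.72%. The windows of the 56 genes are also richer in CpG, with a median of 20 CpG per window against 7 and a GC content of 61.0% against 52.7%, and the part of this in the motif shares was not tested. A match of letters is a description and not a bound site. Below are windows of Ldha and Slc16a3, the genes with the largest genotype changes in lactate handling, and of Tpi1 and Eno2, which moved down and up in MTCH2-/- cells. Capitals mark ACGTG or its reverse complement CACGT, merged to CACGTG where they overlap. The window of Ldha on the plus strand is at chr7:46845554-46845853, that of Slc16a3 on the plus strand at chr11:120948817-120949116, that of Tpi1 on the minus strand at chr6:124814109-124814408, and that of Eno2 on the minus strand at chr6:124769624-124769923, each written 5′ to 3′ on the strand of its gene.
Ldha: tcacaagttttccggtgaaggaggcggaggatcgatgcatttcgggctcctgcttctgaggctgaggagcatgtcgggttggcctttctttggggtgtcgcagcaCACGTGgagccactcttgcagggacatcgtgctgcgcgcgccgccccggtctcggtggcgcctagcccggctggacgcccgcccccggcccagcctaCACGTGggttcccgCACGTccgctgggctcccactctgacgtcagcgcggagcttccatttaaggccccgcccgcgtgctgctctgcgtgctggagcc
Slc16a3: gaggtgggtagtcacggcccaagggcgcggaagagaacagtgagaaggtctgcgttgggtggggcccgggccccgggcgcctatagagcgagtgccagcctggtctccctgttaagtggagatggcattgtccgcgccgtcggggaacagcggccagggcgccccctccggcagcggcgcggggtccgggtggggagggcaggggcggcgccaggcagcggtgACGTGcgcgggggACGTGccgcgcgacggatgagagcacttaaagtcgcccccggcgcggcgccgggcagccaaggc
Tpi1: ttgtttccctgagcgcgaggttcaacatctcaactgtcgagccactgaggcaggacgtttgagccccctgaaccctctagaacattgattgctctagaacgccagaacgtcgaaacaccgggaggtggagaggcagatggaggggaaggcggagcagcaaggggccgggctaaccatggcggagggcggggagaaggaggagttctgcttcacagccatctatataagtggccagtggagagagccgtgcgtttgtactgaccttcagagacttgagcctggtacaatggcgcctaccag
Eno2: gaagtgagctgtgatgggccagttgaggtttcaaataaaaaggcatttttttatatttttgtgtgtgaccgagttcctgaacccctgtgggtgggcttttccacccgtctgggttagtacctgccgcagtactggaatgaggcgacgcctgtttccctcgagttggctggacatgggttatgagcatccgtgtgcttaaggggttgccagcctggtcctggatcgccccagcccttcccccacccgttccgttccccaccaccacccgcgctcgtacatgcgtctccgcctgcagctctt

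Counted on both strands, the Ldha window held 5 ACGTG matches, 4 of them in its 2 CACGTG elements, and that of Slc16a3 held 2, while a second annotated Ldha window held 0. The windows of Tpi1, Eno2, Pfkl and Pdk1 held 0 ACGTG matches. GCGTG was found in both Ldha windows, in the Pfkl window and in 1 of the 2 Pdk1 windows, and not in those of Slc16a3, Tpi1 and Eno2. No match says only that these letters are not in these windows.

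Entry of pyruvate into mitochondria depends on the carrier (Mpc1, Mpc2), on pyruvate dehydrogenase (Pdha1, Pdhb, Dlat, Dld) and on the kinases that switch the enzyme off (Pdk1 to Pdk4). Pdk1 rose and the carrier fell with priming in both genotypes. Pdk1 was at 21.5, 22.1 and 25.1 CPM in MTCH2 F/F ESCs, 207, 233 and 233 in MTCH2 F/F EpiLCs, 20.4, 21 and 24.2 in MTCH2-/- ESCs and 96.4, 106 and 82.6 in MTCH2-/- EpiLCs. The ESC groups overlapped between genotypes, and each MTCH2-/- EpiLC library was below each MTCH2 F/F EpiLC library. Pdk1 rose with priming by 3.29 (SE 0.10, adjusted p = 3.64e-13) for MTCH2 F/F and by 2.12 (SE 0.098, adjusted p = 2.16e-10) for MTCH2-/- cells, and the genotype contrast in EpiLCs was -1.24 (SE 0.090, adjusted p = 1.7e-08). Pdk4 was at 22.1, 21.7 and 23.5 CPM in MTCH2 F/F ESCs, 9.06, 8.19 and 12.6 in MTCH2 F/F EpiLCs, 19.5, 14.7 and 15.7 in MTCH2-/- ESCs and 18.4, 16.5 and 17.3 in MTCH2-/- EpiLCs. It fell with priming in MTCH2 F/F cells, -1.18 (SE 0.14, adjusted p = 1.97e-06), and gave 0.060 (SE 0.14, adjusted p = 0.751) in MTCH2-/- cells, whose libraries overlapped. Against MTCH2 F/F, Pdk4 was 0.81 (SE 0.14, adjusted p = 0.000134) in EpiLCs and -0.43 (SE 0.14, adjusted p = 0.0173) in ESCs, the latter lost without MTCH2-/- ESC replicate 2 or 3 (adjusted p = 0.0673 and 0.0585). Pdk3 rose with priming in MTCH2 F/F cells (0.42) and fell in MTCH2-/- cells (-0.37), and was lower in MTCH2-/- EpiLCs (-0.99). Pdk2, at 6.28 to 11.8 CPM, was lower in MTCH2-/- cells, at -0.41 in ESCs and -0.37 in EpiLCs, near the threshold. The ESC call was lost without MTCH2 F/F replicate 2 or 3 or MTCH2-/- replicate 1 or 3 (adjusted p up to 0.119), and the EpiLC call without EpiLC replicate 1 or 3 of either genotype, MTCH2-/- ESC replicate 1 or 3 or MTCH2 F/F ESC replicate 2 (up to 0.232).

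The pyruvate carrier fell with priming. Mpc1, per kb the lowest of the 56 genes in MTCH2 F/F EpiLCs, was at 3.32, 3.46 and 2.82 CPM in MTCH2 F/F ESCs, 1.42, 1.21 and 1.06 in MTCH2 F/F EpiLCs, 4.86, 3.30 and 3.75 in MTCH2-/- ESCs and 3.61, 1.78 and 2.27 in MTCH2-/- EpiLCs. Mpc2 was at 11.4, 12.6 and 15.1 CPM, 5.19, 3.73 and 6.57 CPM, 12.4, 12.9 and 12 CPM and 6.86, 7.61 and 8.16 CPM in the same order. Both genes had higher levels in each MTCH2-/- EpiLC library than in each MTCH2 F/F EpiLC library, and the ESC libraries overlapped between genotypes. Mpc1 fell with priming, at -1.38 (SE 0.27, adjusted p = 0.000283) in MTCH2 F/F cells, and in MTCH2-/- cells at -0.63 (SE 0.23, adjusted p = 0.04) with overlapping libraries, a call lost without MTCH2-/- ESC replicate 1 or 3 or MTCH2-/- EpiLC replicate 2 or 3 (0.0585 to 0.167). Mpc2 fell too, at -1.34 (SE 0.17, adjusted p = 3.13e-06) and -0.72 (SE 0.16, adjusted p = 0.00183). In EpiLCs the genotype contrast was 1.06 (SE 0.27, adjusted p = 0.00305) for Mpc1 and 0.56 (SE 0.17, adjusted p = 0.0109) for Mpc2, the latter with an adjusted p of 0.0839 without MTCH2 F/F EpiLC replicate 2. Of the dehydrogenase subunits, Pdha1 (242 to 343 CPM) passed in no contrast, and Dlat was lower in MTCH2-/- cells, at -0.29 in ESCs and -0.52 in EpiLCs. Pdhb was 0.22 higher in MTCH2-/- ESCs (adjusted p = 0.00783, or 0.0825 without MTCH2 F/F ESC replicate 2), and it was -0.20 with priming of MTCH2-/- cells, lost without MTCH2-/- ESC replicate 3 or MTCH2-/- EpiLC replicate 1 (0.0579 to 0.0659). Dld passed only for priming of MTCH2 F/F cells (0.14, adjusted p = 0.0402), which was lost without MTCH2 F/F ESC replicate 2 or 3, MTCH2 F/F EpiLC replicate 1 or 2, MTCH2-/- ESC replicate 2 or 3 or MTCH2-/- EpiLC replicate 3 (up to 0.175).

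The pentose phosphate branch was lower in MTCH2-/- cells at all 4 genes in ESCs and at 3 of 4 in EpiLCs (20.4% and 30.2% of all genes). Tkt, transketolase, was at 645, 629 and 615 CPM in MTCH2 F/F ESCs, 1026, 1046 and 1031 in MTCH2 F/F EpiLCs, 380.4, 398 and 331 in MTCH2-/- ESCs and 439.6, 522 and 411 in MTCH2-/- EpiLCs. All MTCH2-/- libraries of Tkt lay below all MTCH2 F/F libraries, with a contrast of -0.77 (SE 0.082, adjusted p = 3.63e-06) in ESCs and -1.18 (SE 0.083, adjusted p = 1.17e-08) in EpiLCs. G6pdx, the glucose-6-phosphate dehydrogenase that commits sugar to the branch, was at 92.5, 83.4 and 83.2 CPM in MTCH2 F/F ESCs, 122, 108 and 101 in MTCH2 F/F EpiLCs, 54.5, 54.3 and 49 in MTCH2-/- ESCs and 60.1, 70.9 and 71.1 in MTCH2-/- EpiLCs. It was lower, at -0.71 (SE 0.084, adjusted p = 8.54e-06) and -0.71 (SE 0.084, adjusted p = 2.46e-06), again without overlap. G6pdx rose with priming by 0.36 for MTCH2 F/F and 0.35 for MTCH2-/- cells. Taldo1, transaldolase, was lower in MTCH2-/- cells, at -0.52 and -0.49 and fell with priming in both genotypes. Pgd, which makes the second NADPH of the branch, was lower in MTCH2-/- ESCs (-0.42) and not past the threshold in EpiLCs (-0.11, adjusted p = 0.254).

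Of the 15 TCA genes, 9 were lower and 0 higher in MTCH2-/- ESCs (20.4% and 23.3% of all genes). In EpiLCs 12 were lower and 2 higher (30.2% and 32.3% of all genes), and Cs, citrate synthase, was the 1 that did not pass (-0.11). With the replicate number as a block, Cs passed as lower in ESCs (-0.11, adjusted p 0.0498, against 0.107 without it). The log2 fold changes of the 6 that did not pass in ESCs without the block ran from -0.18 (Idh2) to 0.098 (Idh3b). In EpiLCs the lowest values were those of Fh1 and Suclg2. Fh1, fumarase, was at 108, 105 and 105 CPM in MTCH2 F/F ESCs, 118, 126 and 121 in MTCH2 F/F EpiLCs, 74.7, 80.9 and 73.1 in MTCH2-/- ESCs and 65.2, 66.2 and 59.2 in MTCH2-/- EpiLCs. No 2 groups overlapped, with MTCH2-/- EpiLCs lowest and MTCH2 F/F EpiLCs highest. The genotype contrast of Fh1 was -0.48 (SE 0.062, adjusted p = 2.21e-05) in ESCs and -0.93 (SE 0.063, adjusted p = 7.01e-09) in EpiLCs, and its rise with priming in MTCH2 F/F cells was 0.20 (SE 0.062, adjusted p = 0.0108), or an adjusted p of 0.0555 without MTCH2 F/F EpiLC replicate 2. Sucla2, the ATP-forming beta subunit of succinyl-CoA ligase, was at 108, 100.2 and 99.7 CPM in MTCH2 F/F ESCs, 71.1, 67.6 and 69.5 in MTCH2 F/F EpiLCs, 68.5, 73.1 and 66.3 in MTCH2-/- ESCs and 55.9, 62 and 54.4 in MTCH2-/- EpiLCs. It was lower in MTCH2-/- cells, at -0.57 (SE 0.066, adjusted p = 6.87e-06) in ESCs and -0.27 (SE 0.067, adjusted p = 0.00213) in EpiLCs, without overlap in either medium.

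Idh2, the mitochondrial NADP-dependent isocitrate dehydrogenase, went the other way in EpiLCs. It was at 333, 339.5 and 373 CPM in MTCH2 F/F ESCs, 137, 135 and 178 in MTCH2 F/F EpiLCs, 317, 328 and 277 in MTCH2-/- ESCs and 248, 226 and 191 in MTCH2-/- EpiLCs. Each MTCH2-/- EpiLC library was above each MTCH2 F/F EpiLC library and below each ESC library. Idh2 fell with priming, at -1.22 (SE 0.11, adjusted p = 2.54e-07) for MTCH2 F/F and -0.47 (SE 0.11, adjusted p = 0.00342) for MTCH2-/- cells, with a contrast of 0.57 (SE 0.11, adjusted p = 0.000536) between the EpiLCs. The 3 subunits of the NAD-dependent enzyme did not move together: in MTCH2-/- EpiLCs Idh3a (-0.75) and Idh3g (-0.28) were lower and Idh3b (0.33) higher. Idh1, the cytosolic NADP-dependent form, was lower in MTCH2-/- cells, at -0.44 in ESCs and -0.35 in EpiLCs, and its -0.17 with priming of MTCH2 F/F cells passed with the block (0.024, against 0.0529). Of the 2-oxoglutarate dehydrogenase complex, Dlst rose with priming in both genotypes (0.56 and 0.27) and Ogdh in MTCH2 F/F cells (0.25), and both were lower in MTCH2-/- EpiLCs (-0.39 and -0.22). The malate dehydrogenases Mdh1 and Mdh2 were lower in both media, at -0.37 and -0.54 in ESCs and -0.32 and -0.58 in EpiLCs. So were Suclg1 (-0.36 and -0.38) and Suclg2 (-0.44 and -0.82), the Suclg2 call in ESCs being lost without MTCH2 F/F ESC replicate 1 or MTCH2-/- ESC replicate 2 or 3 (0.061 to 0.0831). Aco1, the cytosolic aconitase, was lower in MTCH2-/- EpiLCs, at -0.24.

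Glutamine and aspartate handling is covered by 4 genes, of which Got2 and Glud1 were lower in MTCH2-/- cells of both media. Glul, glutamine synthetase, rose with priming, and more so in MTCH2-/- cells. It was at 82.9, 85.1 and 75.9 CPM in MTCH2 F/F ESCs, 112, 119 and 110.0 in MTCH2 F/F EpiLCs, 75.5, 85.6 and 78.5 in MTCH2-/- ESCs and 139, 198 and 181 in MTCH2-/- EpiLCs. The ESC libraries of the genotypes overlapped and the EpiLC libraries did not. Its log2 fold change with priming was 0.49 (SE 0.10, adjusted p = 0.000659) for MTCH2 F/F and 1.11 (SE 0.10, adjusted p = 5.35e-07) for MTCH2-/- cells, and that between genotypes in EpiLCs 0.60 (SE 0.10, adjusted p = 0.000107). Got2, the mitochondrial aspartate aminotransferase, was at 93.9, 97 and 84 CPM in MTCH2 F/F ESCs, 142, 146 and 129 in MTCH2 F/F EpiLCs, 64.8, 72.6 and 59.1 in MTCH2-/- ESCs and 68.2, 78.6 and 59.1 in MTCH2-/- EpiLCs. Every MTCH2-/- library of Got2 was below every MTCH2 F/F library, with -0.48 (SE 0.099, adjusted p = 0.00111) in ESCs and -1.02 (SE 0.099, adjusted p = 4.24e-07) in EpiLCs. Its cytosolic partner Got1 stayed at 235 to 288 CPM and passed only for priming of MTCH2 F/F cells (-0.17, adjusted p = 0.0281, and 0.0789 to 0.136 without MTCH2 F/F ESC replicate 2 or 3 or MTCH2 F/F EpiLC replicate 1 or 2). With the replicate number as a block Got1 also passed in EpiLCs (0.0467). Glud1, glutamate dehydrogenase, was lower in MTCH2-/- cells, at -0.16 in ESCs (adjusted p = 0.0405, and 0.0561 to 0.132 without MTCH2 F/F ESC replicate 2 or 3 or MTCH2-/- ESC replicate 1 or 3) and -0.39 in EpiLCs.

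The response to priming itself differed between genotypes for 27 of the 56 genes, tested as the difference between the MTCH2-/- and the MTCH2 F/F change. In 17 the MTCH2-/- change was lower (30.4%, against 17.2% of all genes) and in 10 higher (17.9%, against 17.8%), 6 of them by at least 2-fold (10.7%, against 14.4%). The median over the 56 was -0.096 and over all genes -0.014. The differences of at least 2-fold were -1.57 (SE 0.20, adjusted p = 6.78e-05) for Ldha, -1.17 (SE 0.14, adjusted p = 8.83e-06) for Pdk1, -1.09 (SE 0.14, adjusted p = 1.79e-05) for Tpi1, 1.95 (SE 0.21, adjusted p = 1.78e-05) for Slc2a3, 1.24 (SE 0.20, adjusted p = 0.000156) for Pdk4 and 1.02 (SE 0.11, adjusted p = 5.86e-06) for Pfkp. For Slc16a3 the difference was -0.91 (SE 0.21, adjusted p = 0.00297). With the replicate number as a block the difference also passed for Pgk1 (adjusted p 0.0258, against 0.0583 without the block) and for Pgam1, Dlat, Ogdh, Suclg2 and Got1, with adjusted p of 0.0139, 0.0359, 0.0439, 0.0189 and 0.0271, which gave 22 lower and 11 higher. Of the 27, 6 lost the call without 1 library, with adjusted p of up to 0.131. Mpc2 did so without any library except MTCH2 F/F ESC replicate 1, MTCH2 F/F EpiLC replicate 3 and MTCH2-/- EpiLC replicate 1, Pgd without any except MTCH2 F/F EpiLC replicate 1, MTCH2-/- ESC replicate 2 and MTCH2-/- EpiLC replicate 1, and Glud1 without any except MTCH2-/- ESC replicate 3 and MTCH2-/- EpiLC replicates 1 and 2. Idh3b did so without MTCH2 F/F ESC replicate 2 or 3, MTCH2 F/F EpiLC replicate 1 or 2, MTCH2-/- ESC replicate 3 or MTCH2-/- EpiLC replicate 2. Sucla2 did so without MTCH2 F/F ESC replicate 1, MTCH2 F/F EpiLC replicate 2, MTCH2-/- ESC replicate 3 or MTCH2-/- EpiLC replicate 2, and Pfkfb3 without ESC replicate 3 of either genotype or MTCH2 F/F EpiLC replicate 2.

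**Figure D3:**
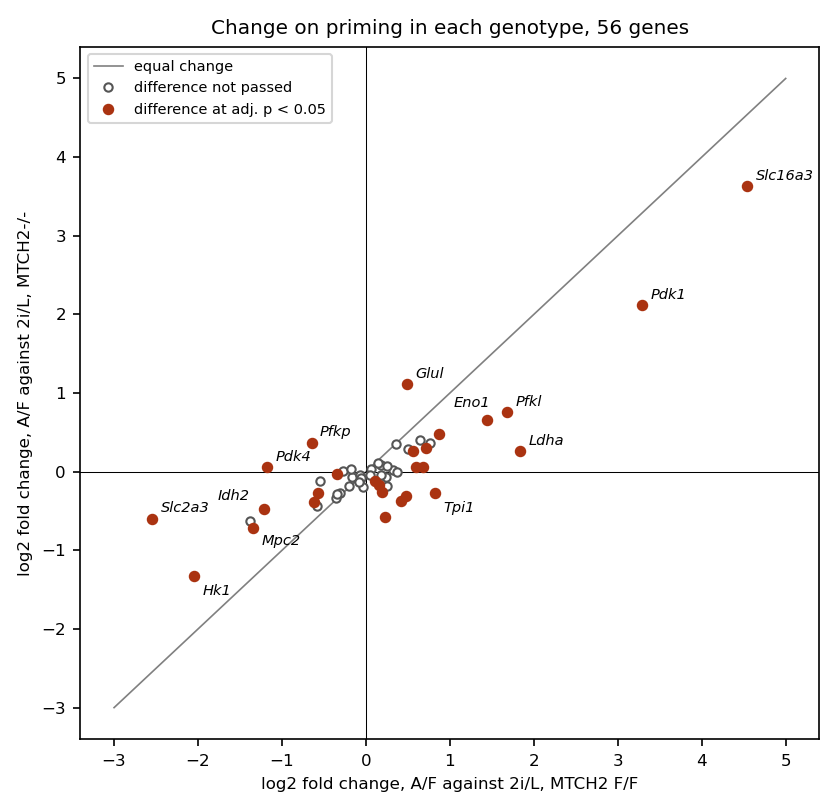
Log2 fold change with priming in MTCH2 F/F cells (x axis) against that in MTCH2-/- cells (y axis), 1 point per gene for the 56 genes, with the line of equal change. Filled points are the 27 genes whose change differed between genotypes at an adjusted p under 0.05; Ldha, Pdk1 and Pfkl lie below the line, Slc2a3, Pdk4 and Glul above it.

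The makeup of isozyme families shifted with these changes. Shares are of CPM per kb of exon summed over the named members of a family, and 3 libraries against 3 cannot give an exact permutation p under 0.1. Ldha made up 38.7, 35.7 and 37% of lactate dehydrogenase transcripts in MTCH2 F/F ESCs, 74, 76.1 and 64.6% in MTCH2 F/F EpiLCs, 19.2, 26.7 and 24.7% in MTCH2-/- ESCs and 20.4, 30.7 and 30.5% in MTCH2-/- EpiLCs. Per kb, Ldha was over 50% of the pair in the MTCH2 F/F EpiLCs and in no library of the other groups. Without division by exon length its mean shares, with the groups in the order of the library values, were 55.5%, 84.1%, 39.2% and 43.8%, so it was then also the larger part in MTCH2 F/F ESCs. The log2 ratio of Ldha to Ldhb in MTCH2-/- minus that in MTCH2 F/F EpiLCs was -2.79 (exact two-sided permutation p = 0.1). Slc2a1 went from 16.1 ± 1.02% to 61.8 ± 5.95% of the glucose transporter pair for MTCH2 F/F cells and from 16.5 ± 2.12% to 26.6 ± 3.09% in MTCH2-/- cells. Without division by length these mean shares were 8.49%, 44.1%, 8.74% and 15%, so Slc2a1 was then the smaller part in MTCH2 F/F EpiLCs too. Pfkl went from 20.7 ± 0.960% to 45.1 ± 3.52% of phosphofructokinase and from 10.8 ± 1.62% to 15.5 ± 1.68%. In ESCs the log2 ratio of Slc2a1 to Slc2a3 differed by 0.038 between genotypes, with overlapping libraries (exact two-sided permutation p = 1), and the Pfkl share of each MTCH2-/- library was below that of each MTCH2 F/F library.

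Slc16a3 went from 4.35 ± 0.651% to 40.1 ± 2.68% of the monocarboxylate transporter pair for MTCH2 F/F cells and from 2.28 ± 0.349% to 17.7 ± 0.862% in MTCH2-/- cells. Pdk1 went from 11.2 ± 1.07% to 54.8 ± 3.03% and from 12.8 ± 1.45% to 42.9 ± 1.45% of the PDH kinases, so it was the main kinase after priming in either genotype. Without division by length its shares were 25.2% and 77.4% for MTCH2 F/F cells and 28.5% and 66.6% for MTCH2-/- cells. Hk1 fell from 32.4 ± 1.72% to 10.1 ± 1.02% and from 27.4 ± 1.96% to 12.8 ± 1.73% of the 2 hexokinases. Eno2 was 4.67 ± 1.0% and 1.19 ± 0.177% of enolase in MTCH2 F/F ESCs and EpiLCs, and 17 ± 3.36% and 8.85 ± 2.45% in MTCH2-/- cells. Got2 was 14.9 ± 1.40% and 23.1 ± 2.18% of the aminotransferase pair in MTCH2 F/F cells and 11.7 ± 1.01% and 12 ± 1.49% in MTCH2-/- cells, and without division by length 25% and 36.3%, and 20.1% and 20.6%. Aldoa was 98.1% to 98.8% of aldolase in every library.

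**Figure D4:**
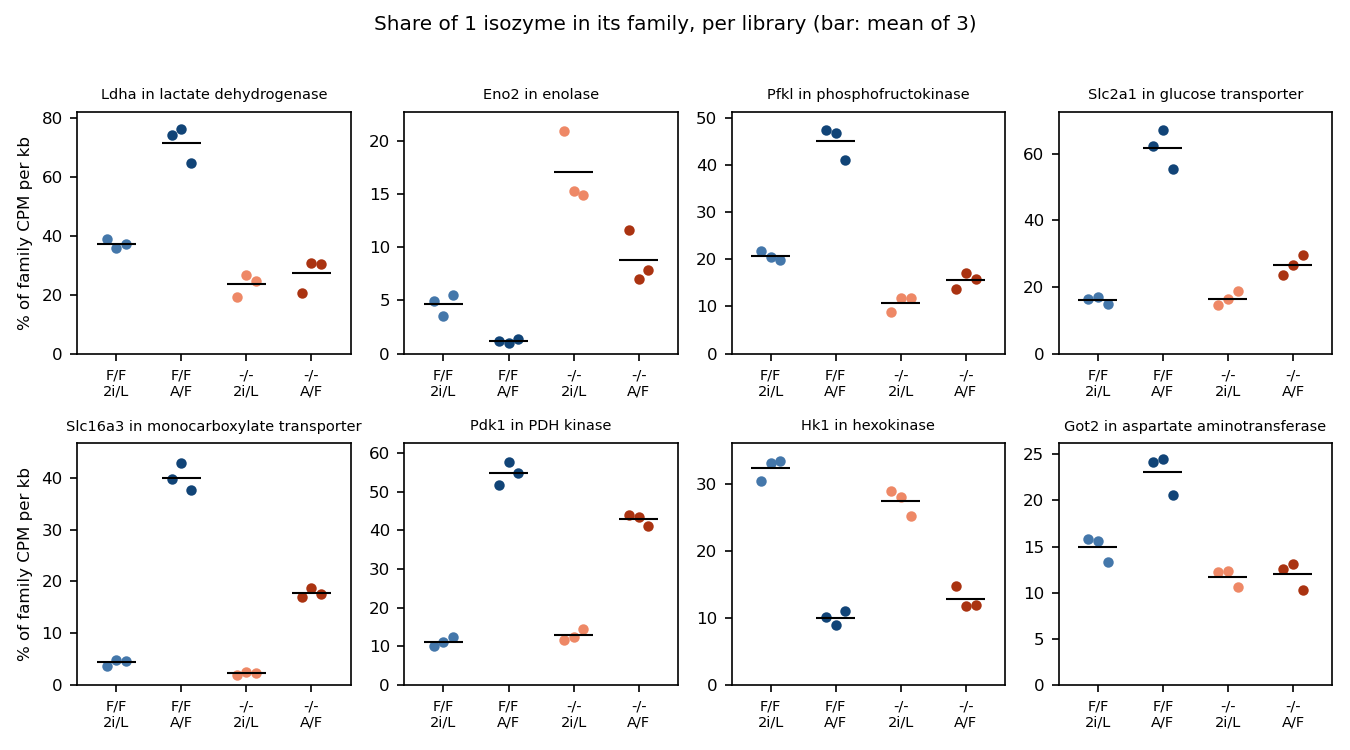
Share of 1 isozyme in the CPM per kb of its family, in percent from 0, with 1 point per library and a bar at the mean of 3. Ldha, Slc2a1, Pfkl and Slc16a3 take their highest share in MTCH2 F/F EpiLCs, and Eno2 has its highest share in MTCH2-/- ESCs.

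Summed over the genes of a step, the groups kept these differences, although a sum is led by its most abundant genes. Lower glycolysis summed to 1818, 1841 and 1695 CPM in MTCH2 F/F ESCs, 3360, 3552 and 3340 in MTCH2 F/F EpiLCs, 1043, 1131 and 1068 in MTCH2-/- ESCs and 1358, 1624 and 1489 in MTCH2-/- EpiLCs. The lactate genes summed to 678, 598 and 569.9, 1535, 1630 and 1328, 406, 393 and 340.3 and 483, 519 and 432 CPM in the same order. In both sums the primed MTCH2-/- libraries were below the unprimed MTCH2 F/F libraries. The TCA genes summed to 2921, 2913 and 2907, 2594, 2615 and 2617, 2416, 2538 and 2392 and 2153, 2279 and 2143 CPM, a sum that fell with priming in both genotypes. Of the 15 genes, 5 were higher and 5 lower with priming of MTCH2 F/F cells (31.9% and 32.1% of all genes). In MTCH2-/- cells 1 was higher and 7 lower (20.0% and 22.2%). Idh2 alone went from a mean of 348 to 150 CPM in MTCH2 F/F cells. Pyruvate entry overlapped between the ESCs of the genotypes, at 743, 670.2 and 662 against 738, 676 and 665 CPM.

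**Figure D5:**
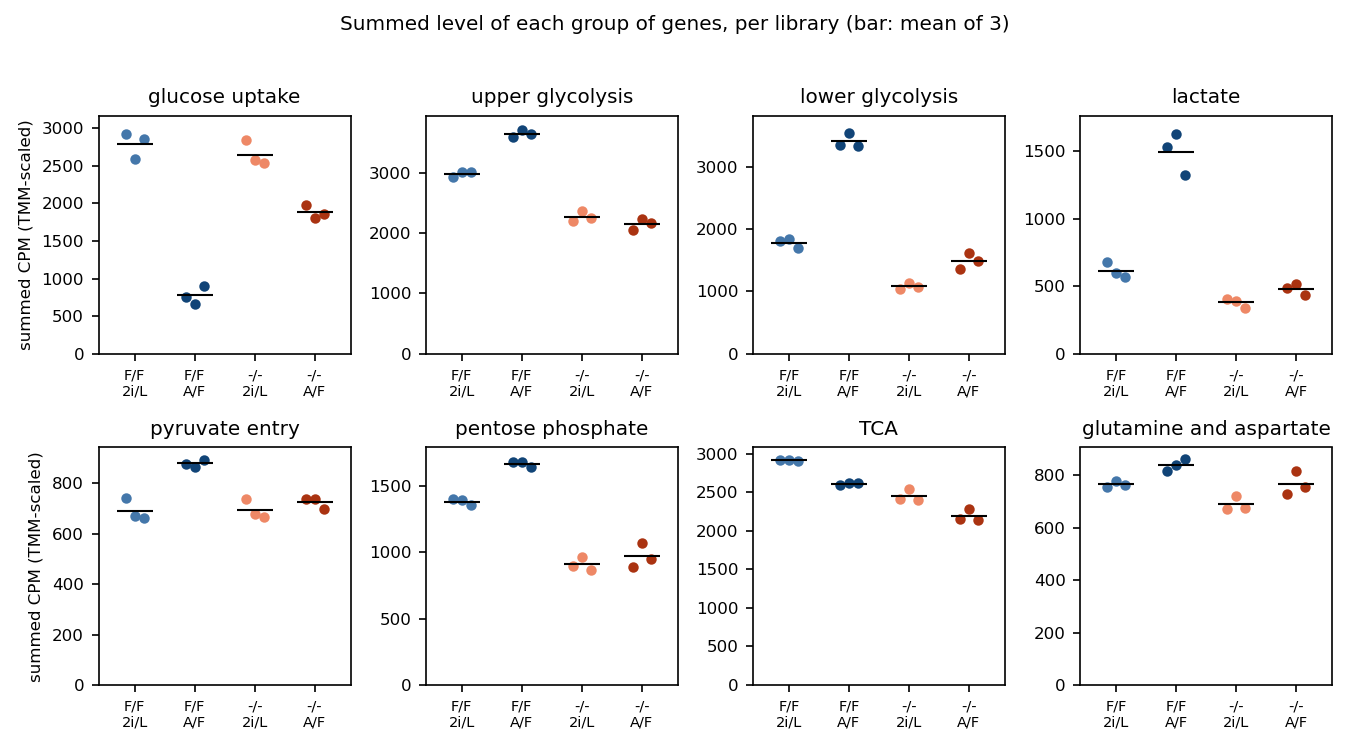
Summed CPM of the genes of each of 8 groups, on linear axes from 0, with 1 point per library and a bar at the mean of 3. Lower glycolysis and lactate stand highest in MTCH2 F/F EpiLCs, and glucose uptake, led by Slc2a3, is lowest there.

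Per kb of exon, Aldoa had the highest level in MTCH2 F/F ESCs at 395 ± 15.7 CPM per kb, followed by Slc2a3 at 353 ± 23.8 and Pkm at 294 ± 12.8. In MTCH2 F/F EpiLCs Aldoa (550.3 ± 12.4) and Pkm (539 ± 20.1) did not differ beyond their spread, and Ldha came after them at 270.4 ± 42. In MTCH2-/- ESCs Slc2a3 (334 ± 25.3) was first and Aldoa (269.7 ± 20.1) next, and in MTCH2-/- EpiLCs Pkm (239.5 ± 21.7), Slc2a3 (221 ± 14.5) and Aldoa (217 ± 20.8) lay within each other's spread. Exon lengths are from GENCODE vM21, over the union of all annotated exons of a gene, which can be far longer than a transcript. For Pfkp, as an example, the union was 13401 bases and the longest coding transcript 4145. The counts are from Ensembl, so for both reasons these levels and the isozyme shares per kb are approximate.

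Other genes of the same pathways, listed by function, were counted beside the 56. Of 25 other glycolytic genes tested, 12 were below and 6 above MTCH2 F/F in MTCH2-/- EpiLCs, and 12 and 5 in ESCs. Of 14 other genes of the TCA cycle, malic enzymes and their carriers, 9 were lower and 1 higher in EpiLCs, and 7 and 0 in ESCs. Of 18 other genes of glutamine and amino acid handling 9 were lower and 4 higher in EpiLCs, and 4 lower and 7 higher in ESCs. Of 8 other pyruvate genes 4 were lower and 1 higher, and of 7 other pentose phosphate genes 2 and 2, in EpiLCs. The shares over all genes, beside which these counts are to be read, were 30.2% lower and 32.3% higher in EpiLCs. In ESCs they were 20.4% lower and 23.3% higher. Those past 2-fold in EpiLCs at a mean of at least 10 CPM were Galk1, galactokinase (-1.96), the pyruvate dehydrogenase phosphatase Pdp1 (-1.24), Prps1 (-1.05) and the citrate carrier Slc25a1 (-1.05), all lower, and Pfkfb2 (1.62) and Pcx, pyruvate carboxylase (1.39), both higher. Genes of these lists past 2-fold only in other contrasts are not named here.

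Regulators of these pathways did not move in 1 direction. Of 21 tested, 9 fell below and 9 rose above MTCH2 F/F in EpiLCs, and of 16 hypoxia-responsive genes outside glycolysis 7 were lower and 5 higher. Over all genes 30.2% were lower and 32.3% higher in this contrast. Egln3, a prolyl hydroxylase that hypoxia-inducible factors induce, was at 10.8, 14.1 and 13.6 CPM in MTCH2 F/F ESCs, 39.6, 41.8 and 37.1 in MTCH2 F/F EpiLCs, 13.3, 13.8 and 14 in MTCH2-/- ESCs and 17.4, 18 and 16.4 in MTCH2-/- EpiLCs. Each MTCH2 F/F EpiLC library was above all the others, with a genotype contrast of -1.19 (SE 0.098, adjusted p = 6.03e-08) in EpiLCs. Ndrg1, Kdm3a and Cited2, of the hypoxia-responsive list, were higher in MTCH2-/- EpiLCs (2.48, 1.27 and 1.19). Of the regulators, Esrrb was 2.03 and Lin28a -1.36 in EpiLCs. Myc rose with priming by 2.46 for MTCH2 F/F and 2.59 for MTCH2-/- cells.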

How the data were processed

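RNA was sequenced from 12 libraries, 3 for each genotype and medium (TruSeq RNA v2, polyA RNA). Per the labels and the study's methods, the authors used bcl2fastq 2.16.0.10, TopHat2 2.0.10, GRCm38/mm10, HTSeq 0.6.1p1 and DESeq2 1.6.3. The deposited table holds raw read counts per gene and a normalized signal, which equals the count over the DESeq2 size factor (largest relative difference 4.97e-15). Its log2 fold changes and p-values, deposited by the authors for their own comparisons, were not used. Whether counting used strand is not stated in the sources read.

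Counts were tested with edgeR 4.0.16 (robust quasi-likelihood fit, TMM scaling, filterByExpr) in R 4.3.3 with limma 3.58.1. The 4 groups shared 1 fit and p-values were adjusted over 17369 genes. SE is the log2 fold change over the root of F. Alternatives were other scaling (library totals, RLE), no filter, DESeq2 1.42.0, a replicate block, only the groups compared, an adjusted p under 0.01, and leaving out each library. Totals of 17453328 to 24068523 counts per library set the precision, which for genes of a few CPM is low.

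The replicate numbers pair the samples: deviations from the group means correlated at 0.107 to 0.471 in 12 pairs of libraries of the same number, and at -0.317 to 0.0067 in 24 pairs of different number. All values in every library are given for genes with a change of at least 2-fold in a contrast, or the largest change of their step. Genes of the related pathway, regulator and hypoxia lists are named where they differed by at least 2-fold between genotypes in EpiLCs at a mean of at least 10 CPM. Those past 2-fold in the other contrasts are not all named. Levels between genes are CPM per kb of exon. Members and lists were chosen with earlier results of these data known. Shared windows of 60 bases were found with bwa 0.7.19 and counted only where the match had no mismatch.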

Additional observations from a re-analysis of the deposited data

Results flagged for a closer look

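The change with priming differed between genotypes for 27 of the 56 genes by a test of the difference itself (edgeR's quasi-likelihood test, adjusted p under 0.05 over all genes). Values are the log2 change in MTCH2-/- cells minus that in MTCH2 F/F cells. In 10 genes the value was above 0: Slc2a3 1.95, Pdk4 1.24, Pfkp 1.02, Idh2 0.75, Hk1 0.71, Glul 0.63, Mpc2 0.62, Pgd 0.31, Sucla2 0.29 and Idh3b 0.24. Among glycolytic, pentose phosphate and lactate genes it was below 0 for Ldha -1.57, Tpi1 -1.09, Pfkl -0.92, Slc16a3 -0.91, Aldoc -0.80, Aldoa -0.79, Eno1 -0.78, Pfkfb3 -0.62, Tkt -0.41 and Pkm -0.40. Among mitochondrial genes it was below 0 for Pdk1 -1.17, Pdk3 -0.79, Got2 -0.54, Fh1 -0.46, Idh3a -0.32, Dlst -0.30 and Glud1 -0.23. The naïve and EpiLC marker sums of the MTCH2-/- EpiLCs, given in the report, lay between those of ESCs and MTCH2 F/F EpiLCs, and their part in these differences was not tested.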

How the results depend on the processing

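No result changed direction under the alternatives run. Of 2141 alternative log2 fold changes of the genes described by library, 2079 kept their call, 50 lost it and 12 gained it. Of the 56 genes, 13 were higher with priming of MTCH2-/- cells, and 8 were among the 41 genes with under 10% of windows shared, a restriction chosen after seeing the data. The genes with a higher change with priming in MTCH2-/- than in MTCH2 F/F cells numbered 10, and 6 at an adjusted p under 0.01. The replicate block, which follows the pairing of the samples, gave 29 higher and 17 lower with priming of MTCH2 F/F cells, 13 and 18 in MTCH2-/- cells, 4 and 33 between ESCs, 12 and 35 between EpiLCs and 11 and 22 for the difference. It ended no call.

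Without 1 library the counts ran from 22 to 29 higher and 14 to 18 lower with priming of MTCH2 F/F cells, and 12 to 13 and 13 to 17 in MTCH2-/- cells. They ran from 2 to 5 higher and 26 to 33 lower between ESCs, 9 to 11 and 33 to 35 between EpiLCs, and 6 to 11 and 15 to 19 for the difference. The lowest counts of 2 and 6 came without MTCH2 F/F ESC replicate 2, and without MTCH2 F/F EpiLC replicate 2 or MTCH2-/- ESC replicate 3. Other scalings moved the median of all genes by at most 0.065 on the log2 scale. Without division by exon length, the mean share of 1 gene in each of 13 families moved by at least 1 SD between replicates in 42 of 52 values, and by over 1.5 times for some of those of Ldha, Slc2a1, Pdk1 and Got2 given in the report. Genes of a few CPM and those with shared windows are the least certain.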
